A study of Rattus norvegicus with 24 samples.

Results

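Translation initiation and elongation factors were followed through 93 probe sets of 60 genes, out of 31042 probe sets tested on arrays of the rat hypothalamus. They were chosen by symbol: every probe set with a single gene symbol beginning Eif1 to Eif6, Eef1 or Eef2 was taken, whatever its values. The kinases of eIF2 (Eif2ak genes) and the proteins that bind eIF4E (Eif4ebp genes and Eif4enif1) share the prefix, regulate the factors and were set apart. Of the 60 genes, 36 had 1 probe set and 24 had several. A further 5 probe sets carry symbols of more than 1 gene (Eif5 with a pseudogene, Eif3e with a related copy, and Eif2s3 with Eif2s3y) and were left out, so Eif5 and Eif3e are not described.

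RNA came from hypothalamic blocks of 18 male Wistar rats, an outbred strain without introduced alleles, which entered the study at 7 weeks of age. The linalool group was restrained in steel mesh for 2 h inside a 40 L box, into which 20 µL of (R,S)-linalool, a scented monoterpene alcohol of lavender oil, had evaporated. The stress group was restrained for 2 h without the odour, the controls were not restrained, and all rats were decapitated at the end of the exposure. Each group held 6 rats with 1 array per rat. The authors normalised stress with control arrays as one set, and linalool with the same stress arrays as another, so each comparison was made inside its own set and both use the same 6 stress rats.

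Initiation begins when eIF2, bound to GTP, carries the initiator tRNA to the small ribosomal subunit, where eIF1, eIF1A and the many-subunit eIF3 hold it open for scanning. The mRNA is recruited by the eIF4 group: eIF4E binds the cap, eIF4G is the scaffold and eIF4A unwinds structure. Once the start codon is found, eIF5B joins the large subunit, eEF1 then delivers each aminoacyl-tRNA and eEF2 moves the ribosome along. In neurons this system is set by phosphorylation of eIF2 (by the Eif2ak kinases), of eEF2 (by eEF2 kinase) and of the eIF4E-binding proteins (by mTOR), all of which alter proteins and need not show in mRNA. In a bulk block, fewer cells of a type and less RNA per cell cannot be told apart.

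The deposited log2 signals vary between arrays on very unequal scales. A probe set is called compressed here where its residual SD, the spread left within groups, is below 0.01. This held for 78 of the 93 probe sets in the stress set and 60 in the linalool set, and 34.4% of the 93 had an SD among the shared 6 stress rats that was more than 10 times as large in one set as in the other, against 13.4% of all probe sets. Differences are therefore given in residual SDs (a difference of 2 means of 6 arrays has a standard error of 0.577 of them), and in log2 units where the probe set was not compressed. Of 12 marker genes of hypothalamic neurons 11 had a probe set. Their signals lay at a median percentile of 81.0 and 85.4 of all probe sets in the 2 sets (lowest 26.4 and 26.9), which describes brightness on the array and not abundance.

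Restraint alone was not accompanied by a detectable change in any translation factor probe set. None of the 93 passed an adjusted p of 0.05 in limma, where 0.554% of all probe sets did (0.341% higher, 0.213% lower), and the lowest adjusted p among them was 0.171. At an unadjusted p under 0.05 there were 1 higher and 7 lower probe sets, where 9.33% and 6.72% of all probe sets lay (16.0% in either direction). The stress and control rats overlapped for every one of the 93, while 1.78% of all probe sets had groups that did not overlap (1.07% higher, 0.715% lower). Differences were small, with 39 positive, 54 negative and a median of -0.18 residual SDs (0.12 over all probe sets). Their balance depended on the scaling: with array medians subtracted 86 were positive, and with quantile normalisation 76. In these settings 91.0% and 89.3% of all probe sets were positive.

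**Figure D1:**
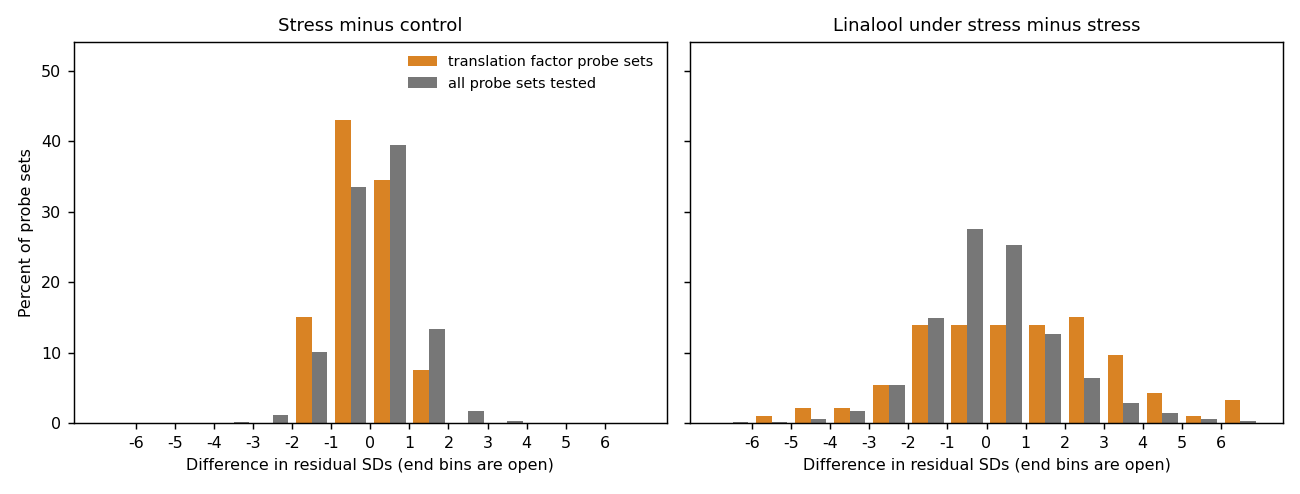
Distribution of differences in residual SDs (horizontal axis) as percent of probe sets (vertical axis) for the 93 translation factor probe sets and all 31042 probe sets tested. Translation factors lie within 2 residual SDs of 0 after stress, while under linalool a larger share of them than of all probe sets lies above 2 residual SDs.

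The smallest p in the stress comparison belonged to Eef1a2, the neuronal and muscle form of the factor that brings aminoacyl-tRNA to the ribosome. Its log2 signal had a lowest, median and highest value of 10.96, 11.09 and 11.13 in stress rats and 10.90, 10.94 and 11.02 in controls. Most stress rats lay above the controls but the ranges overlapped, and the difference of 0.11 (SE 0.0345) did not pass (limma, adjusted p = 0.171). Eef1d, the exchange factor subunit eEF1B delta, differed by -1.83 residual SDs and Eif3c, a core subunit of eIF3, by -1.69 on its probe set 1388378_at (limma, adjusted p = 0.182 and 0.221). These 3 passed when array medians of standardised values were subtracted (adjusted p = 0.0377, 0.0195 and 0.0333), a setting in which 6.48% of all probe sets passed. Next in order of p were Eif4a2 (1397697_at), the neuronal form of the helicase, Eif3j (1395199_at), a loosely bound eIF3 subunit, and Eif4g2 (1397520_at), an eIF4G relative without the cap-binding site. They lay between -1.54 and -1.50 residual SDs, with limma adjusted p between 0.237 and 0.243. The other unadjusted p under 0.05 were those of Eef1a1 (1388110_at, -1.42 residual SDs) and Eif4e (1398799_at, -1.29).

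By class, 13 of the 17 eIF3 probe sets were negative after restraint, with a median of -0.72 residual SDs. With array medians subtracted 13 of the 17 were positive instead, and with quantile normalisation 12, settings in which 91.0% and 89.3% of all probe sets were positive. The regulators gave no call either. The 5 probe sets of the 4 eIF2 kinases differed by 0.13 to 0.70 residual SDs. The 4 of the eIF4E-binding proteins differed by -0.92 to -0.08, all of which became positive with array medians subtracted. The elongation factor eEF2 differed by -0.01 log2 units (SE 0.0346, limma adjusted p = 0.951).

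Eef2k, the calcium and calmodulin dependent kinase that inhibits eEF2, is given rat by rat because 1 rat decided its result, and was chosen for that after its values were seen. All 4 of its probe sets were positive after stress, by 0.65 to 1.04 residual SDs, and stayed positive under each scaling tried. With array medians subtracted and with quantile normalisation this says little, since 91.0% and 89.3% of all probe sets were positive. With array medians of standardised values subtracted 50.3% were. On probe set 1389999_at the Eef2k signal was 8.51, 8.36, 8.39, 8.34 and 8.43 in stress rats 1 to 5 and 7.74 in stress rat 6, against 8.10 to 8.23 in the 6 controls. The first 5 stress rats thus lay above every control and the last one below all of them. The Eef2k difference on that probe set was 0.13 over all rats (SE 0.115, limma adjusted p = 0.59) and 0.24 without stress rat 6 (adjusted p = 0.0223), the only translation factor probe set to pass when an array was left out. In the other set, the same stress rat 6 was again low for Eef2k, at 7.86 against 8.29 to 8.44 in stress rats 1 to 5, while linalool rats lay between 7.69 and 8.14. There the Eef2k difference was -0.29 (SE 0.103) and did not pass (adjusted p = 0.0602). The other Eef2k probe sets differed by -1.16 to 0.60 residual SDs under linalool.

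**Figure D2:**
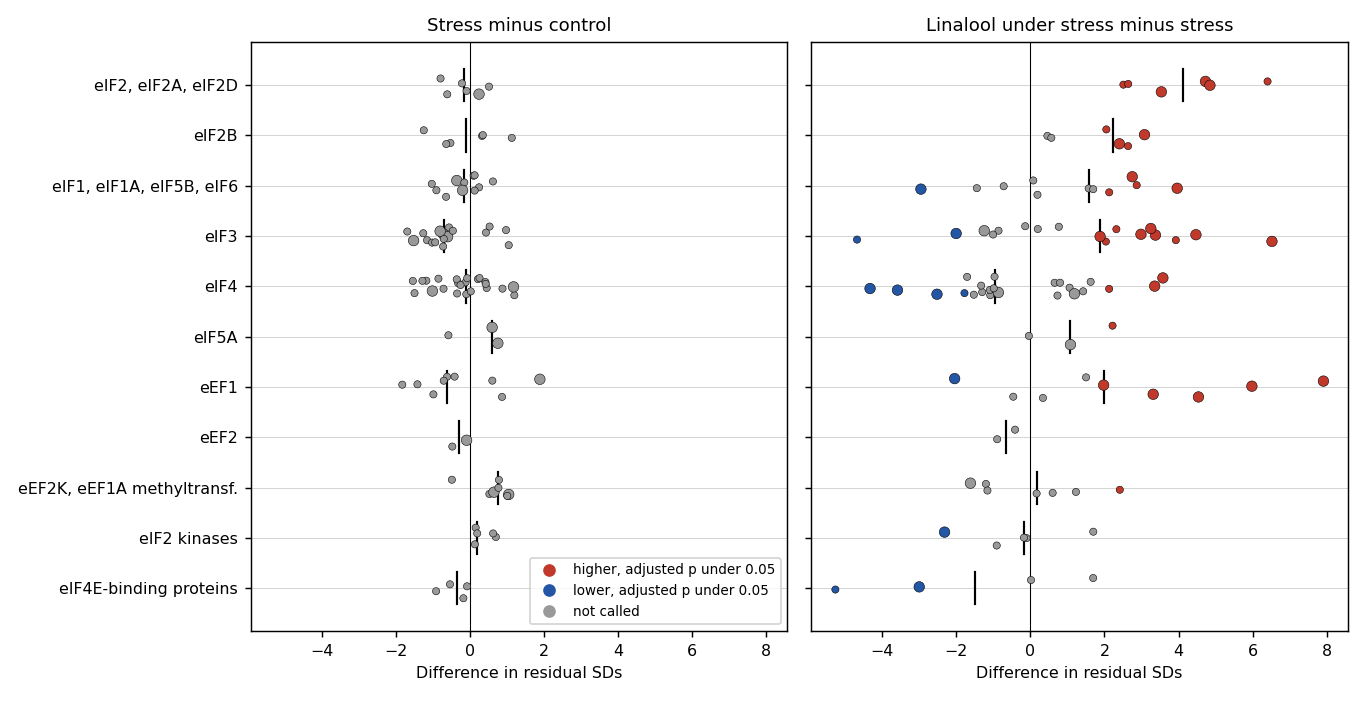
Difference in residual SDs (horizontal axis) for each translation factor probe set, by functional class (rows), after stress (left) and under linalool (right). Red and blue points passed an adjusted p of 0.05, large points are probe sets that were not compressed, and the short line is the class median: no point is coloured on the left, and under linalool all 6 points of the eIF2 class are red.

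Linalool under stress was the comparison in which translation factors differed. Of the 93 probe sets, 33 rose and 11 fell in the linalool rats against rats stressed without odour (limma, adjusted p under 0.05), or 35.5% and 11.8%, where 14.2% and 10.8% of all probe sets did. In either direction 47.3% passed, against 25.0% of all. The balance moved with the scaling: 18 rose and 12 fell with quantile normalisation, and 81 rose and 9 fell with array medians subtracted, where 93.4% of all probe sets passed. In these 2 settings 71.6% and 92.0% of all probe sets were positive. Probe sets of high signal passed more often in general. At or above the median signal lay 79 of the 93, of which 30 rose and 11 fell, against 21.6% and 12.6% of all probe sets there (34.3% in either direction). Of the 33 that were not compressed, 20 rose and 8 fell, against 28.4% and 21.3% of all such probe sets (49.7% in either direction). The groups did not overlap for 24 higher and 6 lower probe sets, against 7.56% and 4.36% of all (11.9% in either direction). The median difference was 0.73 residual SDs, against -0.01 over all probe sets.

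Counted by gene, 29 genes had a probe set that rose, 10 had one that fell, Eif4e had one of each and 22 had neither. The probe sets of a gene shared 1 sign for 16 of the 24 genes with several. The 28 called probe sets that were not compressed kept their direction with array medians subtracted, with array medians of standardised values subtracted and with quantile normalisation, and 26 of them still passed under the last. The 16 compressed ones were less firm. Under quantile normalisation none of them passed and 6 changed sign, and with array medians subtracted 3 changed sign.

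Other measurements moved with the linalool arrays. Probe sets of Bacillus genes that serve as array controls were higher on 15 of 27 and lower on none (median 1.53 residual SDs, adjusted over the 57 controls), and other bacterial and phage controls were lower on 4 of 18 and higher on none. Of the 12 rat controls 2 were higher and 6 lower. The 5' and middle probe sets of beta-actin were higher by 0.20 and 0.08 log2 units while its 3' probe set differed by -1.10 residual SDs without passing. The 3 probe sets of GAPDH (5' -0.10 and middle -0.13 log2 units), that of 5S rRNA (-0.39), the 5' one of hexokinase and ratb1 were lower. The Bacillus controls measure no rat transcript, and a processing batch and the odour cannot be told apart in this comparison. Of 10 neuron marker probe sets 2 were lower and none higher, with a mean deviation of -1.27 to 0.44 residual SDs in linalool rats against 0.05 to 0.84 in stress rats. Markers of hypothalamic neurons lay the other way, 2 of 11 being higher, none lower and 10 positive (median difference 0.59, with a median rat at 0.44 in linalool and -0.45 in stress rats). The calls are 20% and 18.2% of these 2 lists, below the 25.0% of all probe sets called. Both blood marker probe sets were higher (-0.40 to 2.95 against -2.71 to -0.53), as were 2 of 6 for microglia, while none of 22 meningeal ones passed (-0.57 to 0.70 against -0.77 to 0.70). Oligodendrocyte markers had 2 of 10 lower, and astrocyte markers had 1 higher and 1 lower of 11. Endothelium had 1 of 11 higher, the pituitary 1 of 5 lower and the choroid plexus no call of 7. The part of these in the results below was not tested. The same controls gave 1 call of 57 in the stress comparison, where the neuron markers lay at 0.20 to 0.83 in stress rats and -0.65 to -0.25 in controls, and the meningeal ones at -0.74 to -0.27 and -1.01 to 1.79.

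Many mRNAs of the translation machinery begin with a run of pyrimidines just after the cap, through which mTOR signalling and the protein Larp1 control their use. The start regions of the translation factor genes were therefore set beside their calls, as 30 bases of the RefSeq assembly GRCr8 on the transcribed strand, 15 before and 15 from the annotated start. Capitals mark the longest run of at least 8 consecutive C or T letters, and only the strand of the transcript was searched. The first set shows genes that rose under linalool and hold a run that reaches past the annotated start, at base 16 of the window. Only the end of a run was used, so these runs begin before, at or after that base, and not always just after the cap.
Eef1a1 (chr8:88225055-88225084, minus strand): tcgccttggacgTTCTTTTTCgcaacgggt
Eef1b2 (chr9:72074076-72074105, plus strand): tttccggccggtcccggCCCTTTTTCTCCC
Eif2s3 (chrX:62933685-62933714, minus strand): ggcggcagccgagcaTTTTCCTTTTCTCTC
Eif2a (chr2:144911345-144911374, plus strand): ccagcgcatgggTTTCTCTTTCCgggacaa
Eif3m (chr3:111897179-111897208, minus strand): cgtaacaccgtgtggtaccgCTCCTTTTCC

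The second set shows genes that rose and whose run ends before the annotated start, so that it lies outside the mRNA as annotated.
Eif3i (chr5:147226896-147226925, minus strand): cagTCTTCTTCCggtcctactcacattgcc
Eif3k (chr1:93397473-93397502, minus strand): TCTTTTTCTTCCggtccttgagtacttagt

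The third set shows genes that fell, none of which holds a run of that length, so that nothing is in capitals.
Eif4g1 (chr11:93746353-93746382, minus strand): cgccagcgcagctccgccctctgcgccggt
Eif4ebp2 (chr20:29942908-29942937, minus strand): gcttccggtagtcatcgttgccgctgctgc
Eif5b (chr9:47718691-47718720, plus strand): ccatatgtgccctgtcccagtgcgcgggtc
Eif3a (chr1:269919011-269919040, minus strand): cttacatccggggctcgggcggcggcgctg

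Sequences were found for 55 of the 60 genes, and Eef1d, Eif3h, Eif4b, Eif4e3 and Eif4ebp1 had none in the table. A run was present in 11 of 25 genes called only higher (44.0%), in 0 of 9 called only lower, in 2 of 20 without a call (10.0%), and not in Eif4e, which was called both ways. Of all 27457 genes with a listed start, 12.7% hold a run. The run ended at or past the start base in 6 of the 11 genes called higher (of the 25 with a sequence), in both of the genes without a call, and in 8.0% of all genes listed. In the other 5 genes called higher it lay before the start. Among all genes on the array a run in either position was present in 11.6% of 2623 that rose, 13.0% of 1420 that fell and 12.0% of 7549 with no call. It ended at or past the start base in 6.48%, 7.32% and 6.94% of them. The window and the minimum length were chosen after the sequences had been looked at, and the counts describe letters at annotated starts without a test.

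Every member of the eIF2 class rose under linalool: 6 of 6 probe sets, where 14.2% of all probe sets rose, with a median difference of 4.13 residual SDs. With quantile normalisation 5 of 6 remained positive and 3 passed. Eif2s1 encodes the alpha subunit, whose phosphorylation restrains initiation. Its log2 signal had a lowest, median and highest value of 9.66, 9.71 and 9.75 in linalool rats and 9.52, 9.54 and 9.61 in stress rats, without overlap (difference 0.16, SE 0.0194, limma adjusted p = 3.96e-04). Eif2s3, the GTP-binding gamma subunit encoded on the X chromosome, had 10.30, 10.38 and 10.44 in linalool rats and 9.94, 10.05 and 10.13 in stress rats, again without overlap (0.33, SE 0.0395, adjusted p = 3.52e-04). Its Y-linked copy Eif2s3y rose by 0.25 (SE 0.0407, adjusted p = 0.00173), though the copies are so alike that one can add to the signal of the other.

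Eif2s2, the beta subunit, rose by 2.51 residual SDs (limma, adjusted p = 0.0113), but its sign turned to -0.58 with quantile normalisation. Eif2a and Eif2d encode separate proteins that can bring an initiator or other tRNA to the ribosome without eIF2. Eif2d deviations from the mean of the 12 arrays were 1.88, 3.31 and 4.45 residual SDs (lowest, median and highest) in linalool rats and -4.37, -3.39 and -1.49 in stress rats, a wide gap between the groups (difference 6.40, adjusted p = 1.44e-04). Eif2a rose by 2.64 residual SDs (adjusted p = 0.00831). The probe sets of Eif2d and Eif2a were compressed, and no compressed call passed with quantile normalisation. Averaged over the class, the 6 linalool rats lay between 1.37 and 2.93 residual SDs and the 6 stress rats between -3.21 and -1.51.

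The exchange factor eIF2B reloads eIF2 with GTP. Its 6 probe sets all differed upward, 4 of them past the threshold (66.7%, where 14.2% of all probe sets rose), with a median of 2.23 residual SDs. With quantile normalisation 5 of 6 remained positive and 2 passed. Eif2b1, the alpha subunit, had a lowest, median and highest log2 signal of 9.30, 9.40 and 9.54 in linalool rats and 9.00, 9.19 and 9.22 in stress rats (difference 0.27, SE 0.0505, limma adjusted p = 0.0035). All linalool rats lay above all stress rats. Eif2b2, the beta subunit, rose by 0.11 (SE 0.0268, adjusted p = 0.0118) with overlapping groups. Eif2b5 encodes the catalytic epsilon subunit and rose on both its probe sets, by 2.64 and 2.05 residual SDs (adjusted p = 0.00865 and 0.024). Eif2b3 and Eif2b4 differed by 0.46 and 0.57 residual SDs and did not pass.

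**Figure D3:**
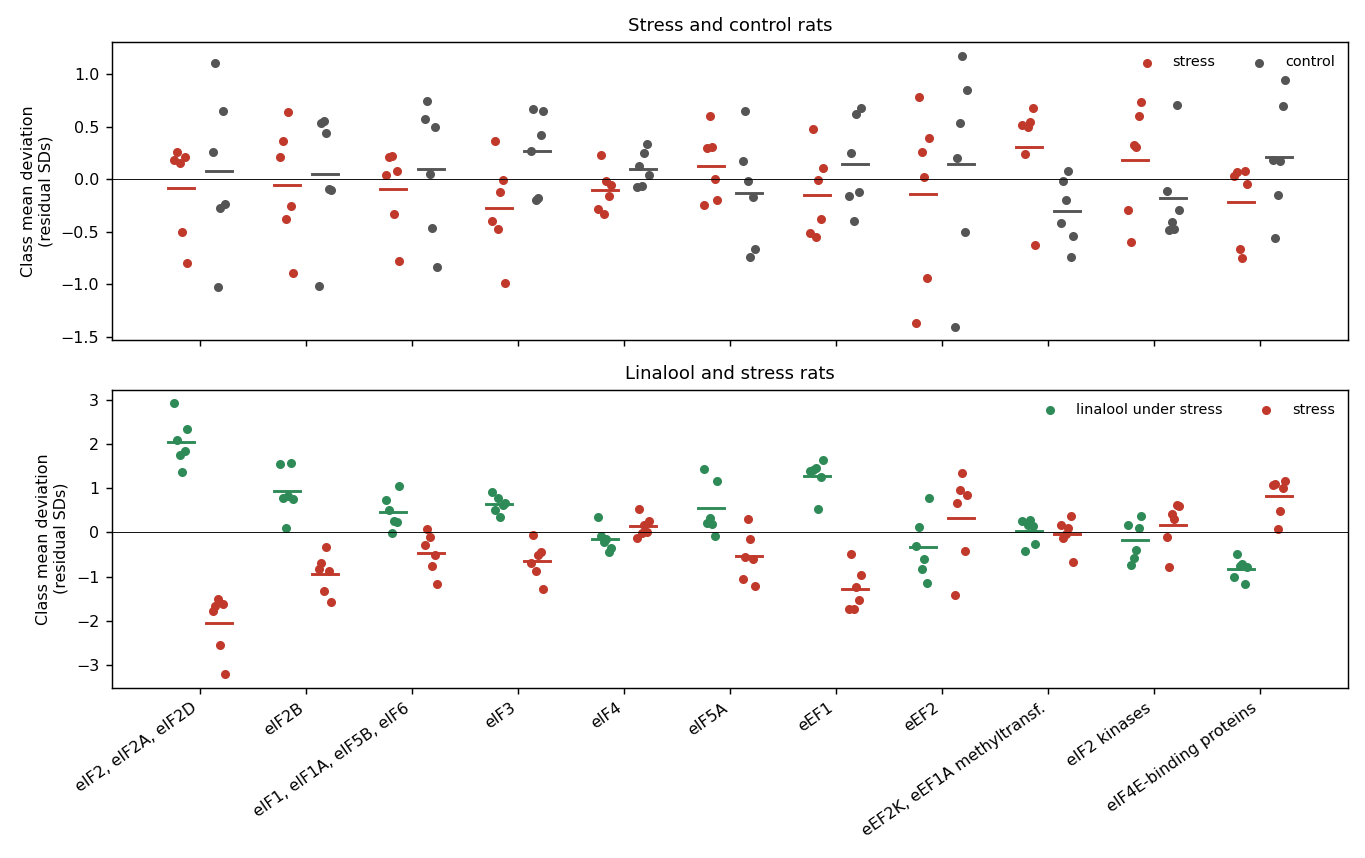
Mean deviation of each class, in residual SDs from the mean of the 12 arrays (vertical axis), for each rat (points) with group means (lines), in the stress and control set (top) and the linalool and stress set (bottom). In the bottom panel the linalool and stress rats are apart for eIF2, eIF2B, eIF3, eEF1 and, in the other direction, the eIF4E-binding proteins.

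Among the factors of scanning and subunit joining, 4 of 11 probe sets rose and 1 fell, or 36.4% and 9.09%, where 14.2% and 10.8% of all probe sets did. At or above the median signal lay 9 of the 11, with all 5 calls, and there 21.6% and 12.6% of all probe sets rose and fell. Eif1a, which with eIF1 keeps the scanning complex open, rose on 1 of its 4 probe sets: 9.09, 9.13 and 9.16 in linalool rats and 8.93, 9.00 and 9.05 in stress rats (lowest, median and highest log2 signal), without overlap (difference 0.13, SE 0.0184, limma adjusted p = 9.69e-04). All 5 probe sets of Eif1a and Eif1ax were positive, under each scaling tried. With array medians subtracted and with quantile normalisation this says little, since 92.0% and 71.6% of all probe sets were positive. With array medians of standardised values subtracted 48.6% were. Eif1ad, a nuclear protein with an eIF1A-like domain, rose by 2.87 residual SDs (adjusted p = 0.0061), and Eif1ax by 2.13 (adjusted p = 0.0203). Eif6 keeps the large subunit from joining too early and takes part in its assembly. It had 10.23, 10.35 and 10.47 in linalool rats and 10.00, 10.15 and 10.21 in stress rats (difference 0.22, SE 0.0454, adjusted p = 0.00606), again without overlap.

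Eif5b, the GTPase of subunit joining, went the other way. Its probe set 1395237_at had a lowest, median and highest log2 signal of 9.63, 9.74 and 9.86 in linalool rats and 9.89, 9.98 and 10.09 in stress rats, so that all linalool rats lay below all stress rats. The difference was -0.24 (SE 0.0474, limma adjusted p = 0.00427). The other Eif5b probe sets differed by -1.45 and -0.72 residual SDs and did not pass. Eif1b, a close relative of eIF1, differed by 0.08 residual SDs.

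The eIF3 complex, which bridges the small subunit and the mRNA, split by subunit. Of 17 probe sets 9 rose and 2 fell, with a median of 1.88 residual SDs. These are 52.9% and 11.8%, where 14.2% and 10.8% of all probe sets rose and fell. The 4 probe sets of Eif3a and Eif3c, which are the largest scaffold subunits of the core, were all negative and 2 fell, while of the 13 of the other subunits 9 rose, none fell and 11 were positive. The grouping was made after the values were seen. With array medians subtracted 2 of the 4 Eif3a and Eif3c probe sets became positive, and with quantile normalisation all 4 stayed negative and 1 passed.

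Eif3l encodes another subunit, and its probe set 1390880_at had the largest log2 difference of all translation factors. Its lowest, median and highest log2 signals were 9.31, 9.50 and 9.59 in linalool rats and 8.74, 8.81 and 8.98 in stress rats (difference 0.66, SE 0.0581, limma adjusted p = 1.04e-04). The groups were clearly apart, and the second Eif3l probe set rose by 0.21 (SE 0.0409, adjusted p = 0.00406). Eif3m, also a subunit of the complex, had 11.15, 11.22 and 11.26 in linalool rats and 10.64, 10.86 and 10.94 in stress rats (difference 0.38, SE 0.0496, adjusted p = 5.25e-04). These did not overlap either. Eif3i, Eif3k and Eif3b, other structural subunits, rose by 0.15, 0.13 and 0.07 (adjusted p = 0.00268, 0.00218 and 0.0336). The second Eif3k probe set differed by -0.14 residual SDs and did not pass.

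Eif3h rose on both its probe sets, by 3.93 and 2.32 residual SDs (limma, adjusted p = 0.00103 and 0.0139), though with quantile normalisation the second turned to -1.01. Eif3d, a subunit that can itself bind some caps, rose by 2.04 residual SDs (adjusted p = 0.025) and turned to -0.39 under the same scaling. Eif3f and Eif3j did not pass.

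Eif3a, on probe set 1389968_at, fell by 4.68 residual SDs (limma, adjusted p = 5.66e-04), a compressed probe set whose sign turned to 1.44 with array medians subtracted. Its deviations were -4.05, -2.09 and -1.38 residual SDs (lowest, median and highest) in linalool rats and 1.40, 1.86 and 3.99 in stress rats, without overlap. The uncompressed Eif3a probe set differed by -0.27 (SE 0.123, adjusted p = 0.135). Eif3c had 9.45, 9.62 and 9.73 in linalool rats and 9.60, 9.94 and 10.11 in stress rats on probe set 1397674_at (difference -0.29, SE 0.0843, adjusted p = 0.0261). These ranges overlapped, and the Eif3c call was lost by leaving out linalool rat 1 (adjusted p = 0.0543), linalool rat 5 (0.0528), stress rat 1 (0.0507), stress rat 3 (0.0557) or stress rat 5 (0.0511).

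The eIF4 group had 3 of 23 probe sets higher, 4 lower and a median of -0.97 residual SDs. This is 30.4% called, against 25.0% of all probe sets. At or above the median signal 7 of 21 were called, where 34.3% of all probe sets were. The share called was thus a little above that of the whole array and not above that of probe sets of such signal. The parts of the group differed in sign. Of the scaffold genes, all 9 probe sets of Eif4g1, Eif4g2 and Eif4g3 were negative, 3 fell and 6 did not pass. With array medians of standardised values subtracted the 9 remained negative and with quantile normalisation 8 did, while with array medians subtracted the 6 that did not pass became positive and the 3 that fell kept their sign. Eif4g1, the main scaffold between cap-binding protein, helicase and eIF3, fell on 2 of 4 probe sets. On 1385152_at it had 7.80, 7.93 and 8.10 in linalool rats and 8.31, 8.43 and 8.67 in stress rats (lowest, median and highest log2 signal), without overlap (difference -0.51, SE 0.0827, limma adjusted p = 0.00161). On 1390340_a_at the Eif4g1 ranges overlapped slightly, with 8.15, 8.48 and 8.67 in linalool rats and 8.61, 8.96 and 9.12 in stress rats (difference -0.48, SE 0.109, adjusted p = 0.0094). Probe set 1388322_at of Eif4g1 differed by -1.71 residual SDs and missed the threshold (adjusted p = 0.0513). It passed without linalool rat 5 (0.0447) or linalool rat 6 (0.0122), and turned to 1.44 with array medians subtracted.

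Eif4g3, a second scaffold with a role like that of Eif4g1, had 10.96, 11.02 and 11.10 in linalool rats and 11.15, 11.26 and 11.29 in stress rats on 1373364_at (lowest, median and highest log2 signal). All linalool rats were below all stress rats (difference -0.22, SE 0.0297, limma adjusted p = 6.12e-04). The 3 probe sets of Eif4g2, an eIF4G relative used without the cap, differed by -1.53 to -1.08 residual SDs without passing. Of the helicase genes Eif4a1, Eif4a2 and Eif4a3 none of 4 probe sets passed. Eif4a1 differed by 0.12 (SE 0.0599, adjusted p = 0.152) with overlapping groups, and Eif4a2 by 0.73 residual SDs (adjusted p = 0.387), which became -6.10 with quantile normalisation. Among the helicase cofactors Eif4b rose on 1 of 2 probe sets, with 9.25, 9.37 and 9.46 in linalool rats and 8.99, 9.08 and 9.17 in stress rats, without overlap (difference 0.27, SE 0.0457, adjusted p = 0.00224). Eif4h rose by 2.13 residual SDs (adjusted p = 0.0235), but this turned to -0.60 with quantile normalisation, to -0.19 in the mean of its 2 probe sets, and was lost without linalool rat 2 or stress rat 1 (adjusted p = 0.0509 and 0.0504).

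Eif4e, which encodes the cap-binding protein itself, was called both ways on different probe sets. On 1398799_at its lowest, median and highest log2 signals were 10.73, 10.79 and 10.84 in linalool rats and 10.42, 10.53 and 10.68 in stress rats, without overlap (difference 0.25, SE 0.0405, limma adjusted p = 0.00163). On 1386997_at, which is compressed, it fell by 1.78 residual SDs (adjusted p = 0.0426), with overlapping groups. That fall did not last: it turned to 1.33 with array medians subtracted and to 0.82 with quantile normalisation, and missed the threshold without linalool rat 1, 2, 4, 5 or 6 or stress rat 3, 4, 5 or 6 (adjusted p between 0.0514 and 0.0816). The third Eif4e probe set differed by -1.33 residual SDs and did not pass, nor did any of Eif4e2 and Eif4e3.

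**Figure D4:**
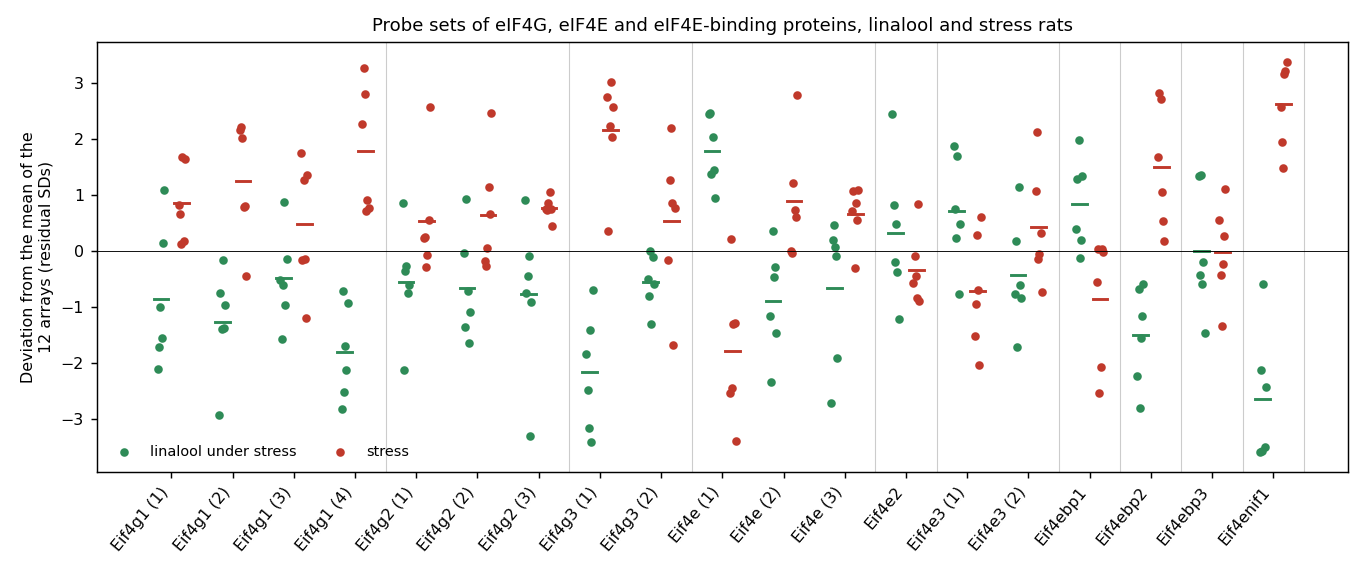
Deviation from the mean of the 12 arrays in residual SDs (vertical axis) for each rat (points) with group means (lines), for the probe sets of eIF4G, eIF4E and the eIF4E-binding proteins, numbered within a gene in order of mean signal, highest first. Linalool means lie below stress means for all 9 eIF4G probe sets, and above them for the first Eif4e probe set.

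Regulators of eIF4E were partly lower: 2 of 4 probe sets fell and none rose, where 10.8% of all probe sets fell. Eif4ebp2, the main 4E-BP of the brain, which withholds eIF4E from eIF4G until mTOR phosphorylates it, had 9.16, 9.25 and 9.30 in linalool rats and 9.35, 9.42 and 9.52 in stress rats (lowest, median and highest log2 signal). The groups did not overlap and the difference was -0.19 (SE 0.0364, limma adjusted p = 0.00397). Eif4enif1 encodes 4E-T, which carries eIF4E into the nucleus and into mRNA granules. It fell by 5.27 residual SDs (adjusted p = 3.24e-04) with no overlap, but turned to 1.44 with array medians subtracted. Eif4ebp1 differed by 1.70 residual SDs (adjusted p = 0.0572) and Eif4ebp3 by 0.02.

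Of the eIF2 kinases 1 of 5 probe sets fell, or 20% called, which is below the 25.0% of all probe sets. All 5 lay at or above the median signal, where 34.3% of all probe sets were called. Eif2ak3 encodes PERK, the kinase of endoplasmic reticulum stress. It had 8.58, 8.64 and 8.70 in linalool rats and 8.66, 8.79 and 8.86 in stress rats, overlapping at the edge (difference -0.14, SE 0.0345, limma adjusted p = 0.014). The kinases for haem shortage, double-stranded RNA and amino acid shortage, Eif2ak1, Eif2ak2 and Eif2ak4, differed on their brightest probe sets by -0.91, -0.17 and -0.10 residual SDs and did not pass; all 3 became positive with array medians subtracted and with quantile normalisation. The other Eif2ak1 probe set differed by 1.70 residual SDs and did not pass either (adjusted p = 0.0534).

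In elongation, 5 of 9 probe sets of the eEF1 group rose and 1 fell, with a median of 1.98 residual SDs. These are 55.6% and 11.1%, where 14.2% and 10.8% of all probe sets rose and fell. The risers included the exchange factor subunits. Eef1d had a lowest, median and highest log2 signal of 10.42, 10.52 and 10.59 in linalool rats and 10.04, 10.10 and 10.13 in stress rats (difference 0.41, SE 0.0302, limma adjusted p = 4.09e-05). This was the smallest p of all translation factors, and the groups lay far apart. Eef1b2, the beta subunit, had 11.65, 11.68 and 11.77 in linalool rats and 11.21, 11.31 and 11.38 in stress rats (difference 0.39, SE 0.038, adjusted p = 1.39e-04), also without overlap. The gamma subunit Eef1g differed by 1.50 and 0.34 residual SDs on its probe sets and did not pass.

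Eef1a1, the general form of the tRNA-delivering factor, had 13.03, 13.07 and 13.09 in linalool rats and 12.90, 12.93 and 12.98 in stress rats on 1370109_s_at (difference 0.13, SE 0.0172, limma adjusted p = 4.88e-04), and rose by 0.12 on its second probe set (adjusted p = 0.0024). The groups did not overlap on either, but Eef1a1 has many near-identical pseudogenes and its probe sets can take signal from them. Eef1a2, the form of mature neurons, had 10.85, 10.95 and 11.11 in linalool rats and 11.01, 11.15 and 11.20 in stress rats (difference -0.17, SE 0.0473, adjusted p = 0.024). It fell with overlapping groups, and the call was lost without stress rat 3 (adjusted p = 0.0531). The second Eef1a2 probe set differed by -0.46 residual SDs and did not pass. The stress comparison, which shares these stress rats, gave Eef1a2 a difference of 0.11 that did not pass. Eef1e1, a scaffold of the tRNA synthetase complex that carries the eEF1 name, rose by 0.14 (SE 0.0411, adjusted p = 0.0276).

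The translocation factor Eef2 showed no call, with differences of -0.90 and -0.41 residual SDs on its probe sets (limma, adjusted p = 0.288 and 0.645); with array medians subtracted both became positive, the first to 1.46, and with quantile normalisation the first passed as lower (-2.50, adjusted p = 0.017). Among the enzymes that modify elongation factors, Eef1akmt2, a lysine methyltransferase of eEF1A, rose by 2.42 residual SDs (adjusted p = 0.0123) without overlap between the groups and the other 6 probe sets did not pass. The class was thus called less often than the array (14.3% against 25.0% of all probe sets). Eif5a, the hypusine-bearing factor that relieves stalled ribosomes, rose by 2.22 residual SDs (adjusted p = 0.017), a sign that turned to -0.28 with quantile normalisation. Its relative Eif5a2 did not pass on either probe set.

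Pathways that act on the translation factors were described from 6 lists, and under stress none of their probe sets passed, where 0.554% of all did. Of all probe sets, 25.0% were called in the linalool comparison (14.2% higher, 10.8% lower). Under linalool 16 of 37 probe sets of the cytosolic tRNA synthetases, which charge tRNAs for eEF1A, rose and 2 fell (48.6% called), with a median of 1.06 residual SDs. Gars1, the glycyl-tRNA synthetase, rose by 0.31 log2 units (SE 0.0293, limma adjusted p = 1.20e-04), and Yars1 and Mars1, for tyrosine and methionine, by 4.32 and 4.14 residual SDs (adjusted p = 7.88e-04 and 9.40e-04). Targets of the integrated stress response, which phosphorylated eIF2 sets off, gave 4 higher and 2 lower of 39 with a median of -0.07. This list was called less often than the array (15.4% against 25.0% of all probe sets). Among its targets Slc3a2, an amino acid transporter chain, rose by 0.23 (adjusted p = 0.0109). Pck2, a mitochondrial carboxykinase of gluconeogenesis, rose by 3.19 residual SDs and Shmt2, a serine-using enzyme, by 2.24 (adjusted p = 0.00322 and 0.0168). The 2 that fell are not named here.

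The mTOR pathway gave 8 higher and 9 lower of 40 probe sets (42.5% called, against 25.0% of all, median 0.17 residual SDs). Tsc2, a brake on mTOR, rose by 0.32 log2 units (limma, adjusted p = 4.02e-04), Rheb, its direct activator, by 4.17 residual SDs (adjusted p = 7.75e-04) and Lamtor2, part of its lysosomal anchor, by 0.08 log2 units (adjusted p = 0.00299). These had the smallest p of the list. Of the probe sets that fell, Rictor, the scaffold of the second mTOR complex, had the smallest p (-2.94 residual SDs, adjusted p = 0.00453) and Larp1 fell on 3 of its probe sets (-2.70 to -2.14); both were chosen after their values were seen. Partners of the cap and poly(A) tail gave 8 higher and 4 lower of 30 (40% called, median 0.75). They included Paip2b, which keeps the poly(A)-binding protein from the tail, Ncbp2 of the nuclear cap complex and Dap, a repressor of translation in dormant ribosomes, higher by 0.29, 0.22 and 0.33 log2 units (adjusted p = 1.12e-04, 8.81e-04 and 0.00273). Termination and recycling factors gave 4 higher and 3 lower of 15 (46.7% called, median 0.46). Hbs1l, which rescues stalled ribosomes, fell by 3.44 residual SDs, and the release factors Etf1 and Gspt2 rose by 2.92 and 2.27 (adjusted p = 0.00244, 0.00542 and 0.0173).

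Other factor-modifying and organelle factors gave 5 higher and 2 lower of 25 probe sets (28% called, median 0.80 residual SDs). Dph3, needed for the diphthamide of eEF2, was called both ways: it rose by 0.26 log2 units on 1 probe set and fell by 2.81 residual SDs on the other (limma, adjusted p = 2.80e-04 and 0.00565). Eefsec, the elongation factor for selenocysteine, rose by 2.86 residual SDs (adjusted p = 0.00674). Over all probe sets tested the median was -0.01 residual SDs and 25.0% were called.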

How the data were processed

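Total RNA (500 ng per rat) was labelled and hybridised to 3' expression arrays, per the labels' protocols. The authors deposited 1 log2 value for each probe set and array. The log2 scale was read from the range of 5.59 to 14.93, and the sources used here do not say how signals were summarised or normalised. There were 2 normalisation sets of 12 arrays, per the deposited design text, and column medians ran from 8.13 to 8.19. The labels describe separate rats, no pair of arrays within a group shared more than 0.00322% of values, and the number of arrays limits the precision.

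Both comparisons used limma (version 3.58.1, R version 4.3.3) with a moderated, two-sided test (prior degrees of freedom 0.403 and 0.419) on the 31042 probe sets that are not among the 57 array controls, with Benjamini-Hochberg adjustment over all of them and a threshold of 0.05. Symbols came from the platform annotation and all 60 matched RefSeq by gene identifier. The procedure was tested on simulated data. Stress arrays kept their identity between the sets (correlation of deviations 0.906 to 0.934 for the same rat).

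The members, their classes and the gene lists were chosen with earlier results of these data known. Text values are given for the 21 listed genes of central roles except Eif5, which was left out, on their brightest probe set. They are also given for up to 3 higher and 3 lower called probe sets per class with the smallest p. Further values are those of the 6 smallest p where fewer than 3 passed, and of genes called both ways. Other members named were chosen after their values were seen. So was the limit of 0.01 for compressed probe sets. Alternatives covered probe sets per gene, array centring, quantile normalisation, a filter on low values, an unmoderated test, the replicate number as a block, and leaving out arrays.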

Additional observations from a re-analysis of the deposited data

Results flagged for a closer look

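Among the 132 groups of 6 values behind the named probe sets, 5 held 1 rat whose gap to its nearest neighbour was a larger part of the whole range than Dixon's critical value allows, and chance alone gives this in about 1 of 20 groups. Eif2b5 on 1387940_at had linalool rat 3 at -0.79 residual SDs, below the other linalool rats at 1.07 to 2.09 (gap 0.645 of the range). Eif4a1 had linalool rat 6 at -1.09, below the others at 0.58 to 1.52 (0.640). Eif4g2 on 1367469_at had stress rat 6 at 2.58, above the others at -0.29 to 0.55 in the linalool set (0.707), and at 2.22 against -0.82 to -0.06 in the control set (0.749). Eif4g3 on 1373364_at had stress rat 2 at 0.36, below the others at 2.04 to 3.03 (0.629).

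In data outside the measured genes, 15 of the 27 array control probe sets of Bacillus genes were higher on linalool than on stress arrays and none was lower. Their origin on these arrays, and their part in the translation factor differences, was not tested.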

How the results depend on the processing

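The stress comparison gave 3 called members with array medians of standardised values subtracted, 0 to 1 when an array was left out (1 without stress rat 6), and 0 under the other alternatives, including the one without controls 4, 5 and 6 together, where 1 of all probe sets passed. In the linalool comparison 44 members passed, 33 higher and 11 lower. With array medians subtracted 90 passed, 81 of them higher, in a setting that called 93.4% of all probe sets. Quantile normalisation left 18 higher and 12 lower, with 8.40% of all called. Leaving out an array gave 40 to 46 calls, 30 to 36 higher and 8 to 12 lower. One probe set per gene, or their mean, gave 28 higher and 8 lower of 60 genes (29.7% and 30.8% of all genes called). With standardised medians subtracted 40 rose and 15 fell, with low probe sets left out 33 and 12 of 79, and without moderation 33 and 11. Of 31 named calls 27 passed in all 12 fits that left out an array, 21 passed with the same sign under quantile normalisation (7 lost, 3 turned) and 22 with the replicate block (9 lost).

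In the linalool comparison some directions turned, on compressed probe sets. With array medians subtracted, where these follow the shift of the array medians, values in residual SDs became 1.46 (Eef2), 1.46 (Eif2ak1), 1.46 (Eif2ak2), 1.50 (Eif2ak4), 1.44 (Eif3a), 1.33 (Eif4e 1386997_at), 1.44 (Eif4enif1), 1.44 (Eif4g1 1388322_at) and 1.46 (Eif4g2). With quantile normalisation they became -6.10 (Eif4a2, adjusted p = 9.20e-05), 0.82 (Eif4e 1386997_at), -0.60 (Eif4h), -0.28 (Eif5a), -0.58 (Eif2s2), -1.01 (Eif3h 1388390_at) and -0.39 (Eif3d). In the mean of its probe sets Eif4h became -0.19. Of 25 probe sets named in the stress comparison, none called, 15 changed sign with array medians subtracted and 11 under quantile normalisation. Apart from the shift, the cause was not tested.

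Groups share replicate numbers in the labels. Deviations of same-numbered rats correlated at 0.08 to 0.22 (4 of 6 over 0.1) in the stress comparison, all of them positive. In the other they correlated at -0.11 to 0.18 (1 of 6 over 0.1). These weak values do not decide whether the numbers pair the rats. With the replicate number as a block, 25 members rose and 7 fell under linalool (17.9% of all called) and none passed after stress; 3 and 1 of 6 rats correlated best with their own number.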
